A study of Mus musculus with 3 samples.

Results

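Aminoacyl-tRNA synthetases are the enzymes that join each amino acid to its transfer RNA. The set described here holds 37 genes of 24421 in the count tables, chosen by symbol from the family's list, though with earlier results of these data known. Of these, 21 encode enzymes of the cytosol and 16 encode enzymes of mitochondria, whose symbols end in 2. Tarsl2 also ends in 2 but encodes a threonyl-tRNA synthetase-like protein and was counted as cytosolic. RNA was sequenced from 3 control libraries of mouse bone marrow hematopoietic stem and progenitor cells (HSPCs), sorted as cells without lineage markers that carry c-Kit and Sca-1. The mice were C57BL/6 with both Cic alleles floxed (labelled Cicflox/flox) and had been given tamoxifen. The labels name no Cre allele and no age for them. Cic encodes Capicua, a transcriptional repressor. The other mouse group of the series was not analysed here, so all values are levels in control cells, and the labels do not say whether the libraries came from separate animals.

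Charging takes place in both compartments. In the cytosol, a group of the enzymes is held together with scaffold proteins in the multi-synthetase complex. In mitochondria, a separate set of nuclear-encoded enzymes charges the transfer RNAs of the mitochondrial genome. A few genes serve both compartments, and Gars for glycine and Kars for lysine are the known cases in the list. Eprs encodes a single chain that charges both glutamate and proline. Synthetases are divided into class I and class II by the fold of their catalytic domain. Uncharged transfer RNA activates the kinase Gcn2, which leads to synthesis of the transcription factor Atf4. Atf4 is known in mammalian cells to switch on several cytosolic synthetase genes.

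Gene rows held 30718562 counts in library 1, 25097769 in library 2 and 30032593 in library 3, and CPM levels are scaled to these totals. The RNA is bulk, so fewer cells of a type and less RNA per cell cannot be told apart. Sort genes were high in every library, Kit averaging 826 ± 71.0 CPM and the Sca-1 gene Ly6a averaging 103 ± 9.50 CPM (SD, n = 3). All 8 HSPC markers reached a mean of 1 CPM, as did 1 of 4 T cell, 3 of 4 granulocyte and macrophage, 2 of 4 erythroid, and 1 of 4 stromal and endothelial markers. The HSPC markers summed to between 2947 and 3342 CPM in each library, and the highest sum of the other lists given here in a library was 196 CPM. The T cell gene Cd4 was at 15.2, 5.02 and 6.69 CPM in libraries 1, 2 and 3, and the erythroid gene Slc4a1 at 13.2, 1.43 and 2.46 CPM, both highest in library 1. The granulocyte genes Itgam, S100a9 and S100a8 averaged 138, 23.1 and 13.2 CPM. The B cell genes Cd79a and Ms4a1 averaged 11.6 and 1.37 CPM. In the stromal and endothelial list Pecam1 averaged 107 CPM, whereas Cdh5 averaged 0.264 CPM and Col1a1 0.0509 CPM. The T cell gene Cd3e, the hemoglobin genes Hba-a1 and Hbb-bs and the collagen gene Col3a1 were at or near 0. Rn45s, the ribosomal RNA precursor, took 11.8%, 8.20% and 7.91% of gene counts in libraries 1, 2 and 3, so library 1 stood apart in this respect too. All 37 synthetase genes reached a mean of 1 CPM, and the lowest count of any of them in a library was 214, for Pars2 in library 2. A count of 0 would allow from 0.0977 to 0.1195 CPM (3 counts, counting error only).

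Cytosolic synthetase genes were higher than mitochondrial ones in every library. Levels of different genes were compared per kilobase, the length being the union of a gene's annotated exons. The cytosolic median was 16.02, 19.4 and 18.6 CPM per kilobase in libraries 1, 2 and 3, and the mitochondrial median was 3.47, 4.61 and 4.21 CPM per kilobase. Over the 12476 genes with a length and a mean of at least 1 CPM, the median was 6.24, 6.63 and 6.45 CPM per kilobase. The cytosolic median thus lay above that of all genes and the mitochondrial median below it in each library.

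On the scale of log2((CPM + 0.5) per kilobase), the cytosolic minus the mitochondrial median was 2.17, 2.06 and 2.13, a mean of 2.12 ± 0.06 (SD, n = 3) or 4.34-fold. The difference was many times the spread between libraries. Its size depended on the length used. It was 1.49 ± 0.03 per kilobase of the longest protein-coding transcript and 1.04 ± 0.12 per kilobase of the longest coding sequence, with the same direction in both. The compartments overlapped all the same. Of 21 cytosolic genes, 13 lay above Rars2, the highest mitochondrial gene other than Lars2, and 3 of 16 mitochondrial genes lay below Cars, the lowest cytosolic gene.

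**Figure D1:**
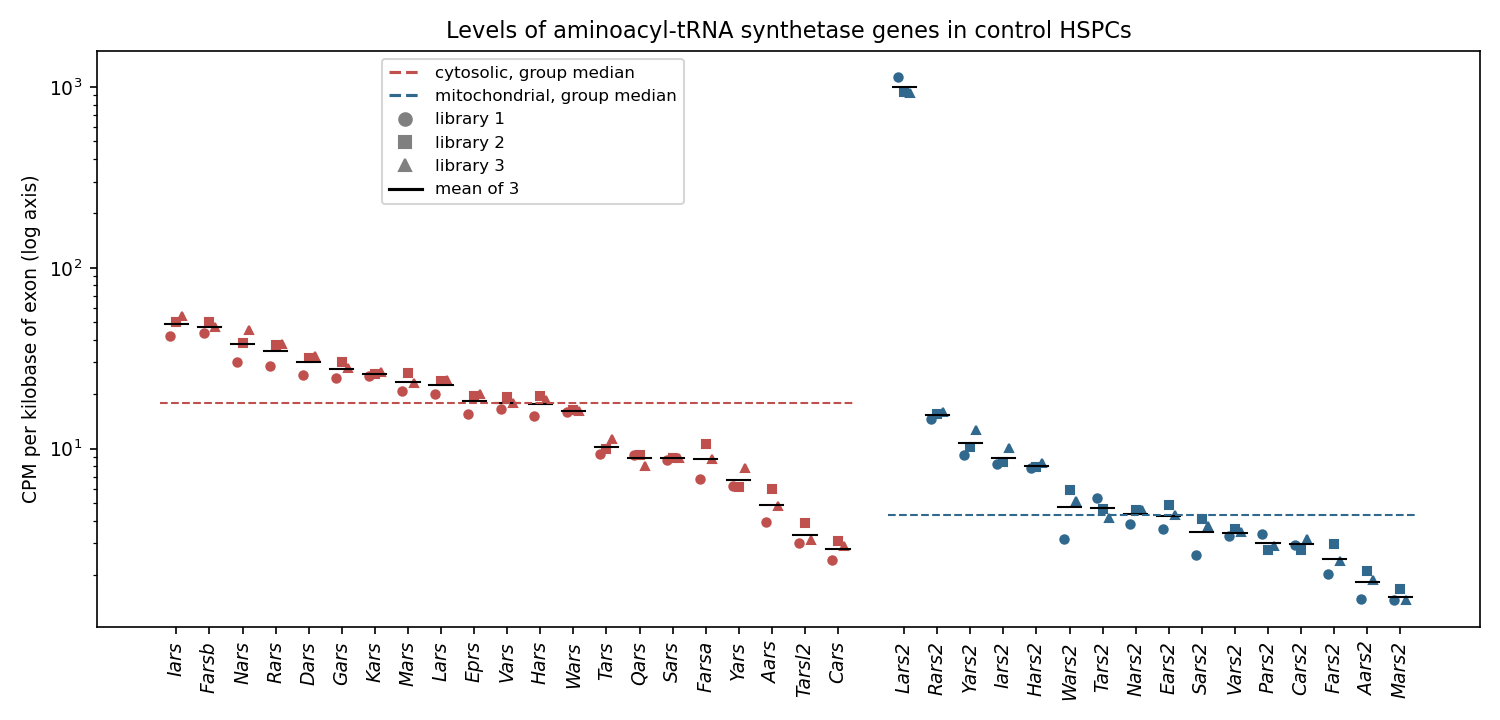
Level of each synthetase gene in CPM per kilobase of exon (log axis), cytosolic genes left and mitochondrial genes right, each in order of its mean. Points are the 3 libraries, short black lines their mean and dashed lines the group medians. The cytosolic median of 17.9 lies above the mitochondrial median of 4.29, and Lars2 stands alone near the top at 1002.

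Among cytosolic genes, Iars, Farsb and Nars had the highest means per kilobase of exon union. In CPM without division by length Eprs was highest, at a mean of 331. On that scale Farsb, at 123, lay below Nars at 166 and Dars at 131. Iars, for isoleucine, was at 42.0, 50.3 and 54.0 CPM per kilobase in libraries 1, 2 and 3. Farsb, the beta subunit of the phenylalanine enzyme, was at 43.4, 50.1 and 46.9 CPM per kilobase, within the range of Iars. Nars, for asparagine, was at 30.3, 38.6 and 45.2 CPM per kilobase. The order of Iars and Farsb changed between libraries, as Farsb was the higher in library 1 and Iars in libraries 2 and 3. Nars lay below both in libraries 1, 2 and 3. The levels of Iars and Nars exceeded those of 94.8% and 92.5% of all 12476 genes.

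The lowest cytosolic genes were Tarsl2 and Cars. Tarsl2, the second threonine enzyme, was at 2.99, 3.87 and 3.10 CPM per kilobase. Cars, for cysteine, was at 2.43, 3.07 and 2.89 CPM per kilobase. Both lay within the range of the mitochondrial genes, and Cars was the lower in all 3 libraries. Tars, the first threonine enzyme, was at 9.38, 9.97 and 11.3 CPM per kilobase and exceeded Tarsl2 in every library, by a log2 difference of 1.61 ± 0.25 (SD, n = 3).

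Without Lars2, the mitochondrial genes spanned 1.52 to 15.3 CPM per kilobase. Rars2, for arginine, was at 14.6, 15.5 and 15.9 CPM per kilobase and Yars2, for tyrosine, at 9.24, 10.2 and 12.6 CPM per kilobase. Their ranges did not overlap. At the low end, Aars2, for alanine, was at 1.48, 2.11 and 1.87 CPM per kilobase and Mars2, for methionine, at 1.44, 1.66 and 1.45 CPM per kilobase. Mars2 was the lower of these in each library, but their ranges overlapped. Mars2 has an annotated exon union of 11294 bases and a coding sequence of 1758 bases, so its level per kilobase depends strongly on which length is used.

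Lars2, the mitochondrial leucine enzyme, had counts far outside the range of the family. It was counted 387645, 261993 and 308871 times in libraries 1, 2 and 3, which is 12619, 10439 and 10285 CPM. Per kilobase it was at 1138, 941 and 927 CPM, against at most 54.0 CPM per kilobase for any other member in any library. It held 97.2%, 96.2% and 96.0% of the counts of the 16 mitochondrial genes. All 37 genes together took 1.36 ± 0.106% of gene counts (SD, n = 3), but without Lars2 the remaining 36 took 0.245 ± 0.0242%. The cytosolic genes took 0.205 ± 0.0213% and the mitochondrial genes without Lars2 0.0403 ± 0.00292%. In single libraries the cytosolic share was 0.1804%, 0.217% and 0.218%, with exact Clopper-Pearson 95% intervals of 0.179 to 0.182%, 0.215 to 0.218% and 0.216 to 0.220%. These intervals cover counting error only.

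Lars2 was highest in library 1, as was Rn45s, and Lars2 counts equalled 10.7%, 12.7% and 13.0% of Rn45s counts in libraries 1, 2 and 3. Lars2 lies on chromosome 9, 123366927 to 123462666 (mm10). Its annotated exons overlap those of no other gene, and 0.196% of the 50-base words of its transcripts also occur in another annotated gene. The longest exact match of a Lars2 transcript to any of 391 annotated ribosomal or mitochondrially encoded transcripts was 16 bases, and the other 36 members reached 12 to 18 bases. Rn45s has no sequence in the reference used, so a match between Lars2 and Rn45s was not tested. The Lars2 level is therefore uncertain, and medians are given in place of means. Without Lars2 the difference between the compartment medians was 2.14 ± 0.07 in log2.

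Partner enzymes of the same amino acid repeated the order of the compartments in most cases. A cytosolic and a mitochondrial gene could be paired for 16 amino acids, with Eprs set against both Ears2 for glutamate and Pars2 for proline, and the mean of Farsa and Farsb set against Fars2. The cytosolic gene was higher per kilobase in all 3 libraries for 13 pairs, and the mitochondrial gene for 2. Pairs with 1 direction throughout gave p = 0.25 in a two-sided exact permutation test that flips the sign of each library's ratio, which no design of 3 libraries can go below (Benjamini-Hochberg adjusted over 16 pairs, 0.267). The median log2 ratio of the 16 pairs was 1.62 ± 0.23 (SD, n = 3).

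Per kilobase of exon union, the widest gap with the cytosolic gene ahead was that of methionine. On the other scales Eprs over Pars2 was wider, at 4.39 against 4.12 for Mars over Mars2 with coding transcripts, 3.51 against 1.55 with coding sequences and 5.08 against 2.19 in CPM. Mars was at 20.7, 26.4 and 23.1 CPM per kilobase, against the Mars2 values given above. The log2 ratio of Mars over Mars2 was 3.91 ± 0.08 (15.0-fold). Nars stood over Nars2, at 3.83, 4.598 and 4.57 CPM per kilobase, by 3.10 ± 0.17 in log2 (8.58-fold). The phenylalanine subunits stood over Fars2, at 2.01, 2.97 and 2.39 CPM per kilobase, by 3.01 ± 0.07 (8.04-fold). These 3 gaps exceeded their spread between libraries and kept their direction under each length scale.

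At the other end were leucine, tyrosine and cysteine. The log2 ratio of Lars over Lars2 was -5.46 ± 0.31, with Lars at 20.0, 23.7 and 24.0 CPM per kilobase. Yars, for tyrosine, was at 6.21, 6.13 and 7.85 CPM per kilobase and below Yars2 in every library, with a log2 ratio of -0.67 ± 0.08. That order turned with the length, since the ratio was 0.20 per kilobase of the longest coding transcript and -0.01 per kilobase of coding sequence. Cars and Cars2 did not separate. Cars2 was at 2.94, 2.76 and 3.16 CPM per kilobase, and the log2 ratio of Cars over Cars2 was -0.08 ± 0.21 (exact sign-flip p = 0.75). It was -0.97 and -0.80 on the other length scales.

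**Figure D2:**
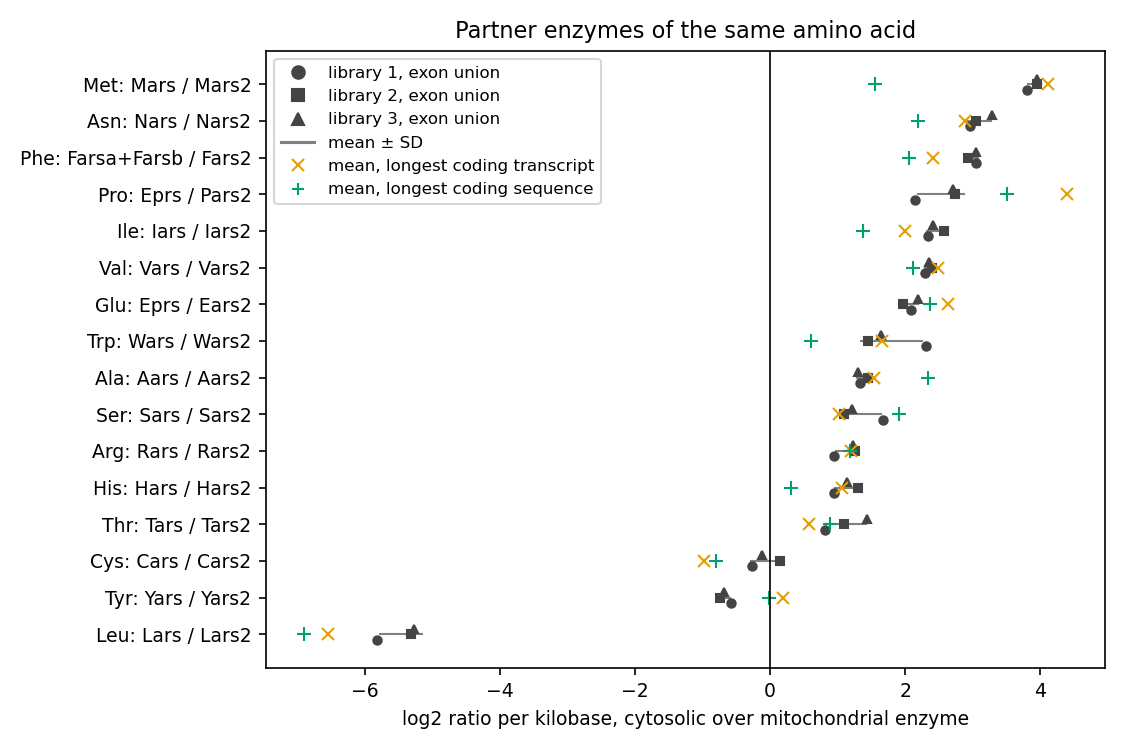
Log2 ratio per kilobase of the cytosolic over the mitochondrial enzyme for 16 amino acids, with the 3 libraries as points, grey lines for mean ± SD, and crosses for the mean under 2 other gene lengths. For 13 pairs all 3 points lie right of 0. Leucine lies far left at -5.46, and tyrosine and cysteine lie near 0.

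The 10 remaining pairs with the cytosolic gene higher in every library had mean log2 ratios from 1.12 for threonine to 2.53 for Eprs over Pars2. Pars2, for proline, was at 3.36, 2.76 and 2.91 CPM per kilobase and Eprs at 15.5, 19.4 and 20.0 CPM per kilobase. Because the exon union of Eprs is 18102 bases long and its coding sequence 4536, this ratio was higher, at 3.51, per kilobase of coding sequence. The ratio of Wars over Wars2, for tryptophan, varied most between libraries. It was 2.31, 1.46 and 1.64 in libraries 1, 2 and 3. Wars itself was nearly constant at 16.02, 16.3 and 16.1 CPM per kilobase, whereas Wars2 was at 3.16, 5.92 and 5.12 CPM per kilobase.

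The 2 subunits of the cytosolic phenylalanine enzyme differed in level. Farsa, the alpha subunit, was at 6.80, 10.6 and 8.76 CPM per kilobase, against 43.4, 50.1 and 46.9 CPM per kilobase for Farsb. The log2 ratio of Farsa over Farsb was -2.43 ± 0.22 (SD, n = 3, exact sign-flip p = 0.25, the smallest possible). Per kilobase of coding sequence it was -1.43, and in CPM without division by length -1.64, so Farsa was lower on each scale. Of the Farsb exon bases, 9.47% overlap Sgpp2 on the opposite strand, and reads of overlapping genes cannot be told apart without a strand setting.

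The median of the multi-synthetase complex genes lay above that of the other cytosolic genes, though the groups overlapped. Farsb and Nars, outside the complex, had higher means than 7 of its 8 genes, and Qars, in the complex, had a mean below the median of the others. The 8 complex enzymes (Eprs, Iars, Lars, Mars, Qars, Rars, Kars and Dars) had medians of 22.9, 26.2 and 25.3 CPM per kilobase in libraries 1, 2 and 3. The 13 others had medians of 9.38, 10.6 and 11.3 CPM per kilobase. The difference of medians in log2 was 1.24 ± 0.08 (SD, n = 3) and stayed between 1.06 and 1.47 under other lengths or with means. Within the complex, Rars for arginine and Dars for aspartate followed Iars, with means of 34.6 ± 5.21 and 30.0 ± 3.82 CPM per kilobase. Qars for glutamine was the lowest, at 9.20, 9.23 and 8.05 CPM per kilobase. Its range overlapped none of the other complex enzymes.

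The dual-use genes were not set apart from the cytosolic group. Gars was at 24.6, 30.0 and 27.8 CPM per kilobase and Kars at 25.1, 26.0 and 26.5 CPM per kilobase. Both lay above the cytosolic median in every library, and their ranges overlapped. Leaving them out gave a cytosolic minus mitochondrial difference of 2.07 ± 0.03. By catalytic class, the 9 class I and 11 class II cytosolic genes had medians of 17.9 and 17.7 CPM per kilobase. Their log2 difference was 0.01 ± 0.09, smaller than its spread between libraries.

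Promoters were examined for what the genes share in sequence. RefSeq windows of 300 bases, from 250 before to 50 after a transcription start (GRCm38.p6, the assembly of mm10), were used for 28 of 37 genes. These were 14 in each compartment, and a gene counts as holding a motif when any of its windows does. No window was used for Hars, Hars2, Lars and Nars, which lie on the same chromosome, or for Cars, Pars2, Rars, Vars and Wars. The members on that chromosome were left out of the search by choice and not through matching. The shares in all genes were taken without leaving that chromosome out. The C/EBP-ATF response element (CARE), which Atf4 binds, was searched as TGATGNAA on either strand (TTNCATCA on the other). It occurred in the windows of 5 of 14 cytosolic genes (35.7%), which were Aars, Gars, Iars, Tars and Yars, and of 0 of 14 mitochondrial genes. It occurred in 4.51% of all 27025 genes with a window (3.97% of 32851 windows). The E-box CACGTG, which Myc and Max bind, occurred in 4 of 14 cytosolic genes (Aars, Farsb, Iars and Tars), 1 of 14 mitochondrial genes (Ears2) and 8.09% of all genes (7.15% of windows). Aars, Iars and Tars held both, with no overlap between them. A loose Capicua motif, TNAATGNA on either strand, occurred in 1 of 28 member genes (Iars2) and 13.4% of all genes (11.7% of windows). Such matches are letters in a window and not evidence of binding.

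The windows of the 3 genes with both a CARE and an E-box are shown with those of 2 mitochondrial partners that held neither. All are given 5′ to 3′ on the gene's strand, with CARE and E-box letters in capitals.
Aars promoter, chr8:111033592-111033891, plus strand: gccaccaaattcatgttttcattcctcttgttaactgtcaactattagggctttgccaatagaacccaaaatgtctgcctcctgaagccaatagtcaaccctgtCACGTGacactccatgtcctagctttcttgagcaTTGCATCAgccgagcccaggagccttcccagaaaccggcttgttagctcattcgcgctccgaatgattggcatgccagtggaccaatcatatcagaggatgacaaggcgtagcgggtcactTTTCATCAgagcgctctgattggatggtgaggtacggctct
Iars promoter, chr13:49681880-49682179, plus strand: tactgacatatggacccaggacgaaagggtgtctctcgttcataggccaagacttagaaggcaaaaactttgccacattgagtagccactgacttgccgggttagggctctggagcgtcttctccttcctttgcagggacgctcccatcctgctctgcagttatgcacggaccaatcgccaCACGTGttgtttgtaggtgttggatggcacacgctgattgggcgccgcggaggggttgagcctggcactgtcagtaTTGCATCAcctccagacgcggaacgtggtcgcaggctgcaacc
Tars promoter, chr15:11399609-11399908, minus strand: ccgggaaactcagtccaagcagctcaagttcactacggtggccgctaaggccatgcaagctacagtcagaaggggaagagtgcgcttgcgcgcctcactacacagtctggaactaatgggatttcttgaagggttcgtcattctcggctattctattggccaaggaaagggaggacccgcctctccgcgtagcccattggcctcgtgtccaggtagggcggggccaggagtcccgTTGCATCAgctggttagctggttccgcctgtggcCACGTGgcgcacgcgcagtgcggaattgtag
Iars2 promoter, chr1:185329352-185329651, minus strand: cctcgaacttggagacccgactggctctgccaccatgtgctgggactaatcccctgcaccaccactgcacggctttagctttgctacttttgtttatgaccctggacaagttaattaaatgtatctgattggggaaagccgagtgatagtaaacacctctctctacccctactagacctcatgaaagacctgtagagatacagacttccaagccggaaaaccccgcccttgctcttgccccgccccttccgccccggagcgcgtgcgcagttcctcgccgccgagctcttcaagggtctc
Tars2 promoter, chr3:95754928-95755227, minus strand: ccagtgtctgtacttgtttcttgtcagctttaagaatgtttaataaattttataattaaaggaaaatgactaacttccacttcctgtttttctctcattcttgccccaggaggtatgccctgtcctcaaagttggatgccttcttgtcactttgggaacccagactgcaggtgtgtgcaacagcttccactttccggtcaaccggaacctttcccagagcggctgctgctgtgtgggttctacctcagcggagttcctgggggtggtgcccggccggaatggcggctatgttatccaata

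In Iars the E-box begins 69 bases before the start and the CARE just after it, and in Tars the CARE begins 15 bases before the start and the E-box after it. In Aars one CARE begins 112 bases before the start, and a second lies after the start. The genes with a CARE did not share a level. Iars had the highest mean per kilobase of the cytosolic genes, with a range that overlapped that of Farsb. Gars exceeded 88.4% of all genes per kilobase, and Aars was at 3.93, 5.98 and 4.803 CPM per kilobase, the third lowest cytosolic gene. Aars shares 14.3% of its exon bases with Exosc6 on the same strand, so part of its reads could have been dropped as ambiguous.

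Some members lie side by side in the genome. Hars and Hars2 on chromosome 18 are transcribed in opposite directions from start regions that overlap by 198 bases. Their levels were 17.7 ± 2.29 CPM per kilobase for Hars and 8.02 ± 0.312 CPM per kilobase for Hars2, a log2 ratio of 1.13 ± 0.17. Eprs and Iars2 on chromosome 1 also point away from each other, 33647 bases apart with 1 listed gene between them. Of the Iars2 exon bases, 24.2% overlap genes on the opposite strand, mainly Rab3gap2.

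No synthetase gene stood out for its spread between libraries. With edgeR's quasi-likelihood test of each gene's spread against genes of its abundance, 0 of 37 members passed an adjusted p of 0.05 over 12965 genes, and the smallest adjusted p was 0.982. In all genes 0.00771% passed, which is 1 gene. Without adjustment the same threshold was passed by 2 members (5.41%), Nars and Wars2, against 4.54% of all genes. DESeq2 marked 0 members among 30 genes whose dispersion lay above its outlier limit. A chi-square test of the counts, which asks only whether reads differ beyond counting noise, called 28 of 37 members (75.7%) and 82.6% of all genes.

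The widest ranges were those of Wars2, Farsa and Sars2. Wars2 was at 18.8, 35.2 and 30.5 CPM in libraries 1, 2 and 3, Farsa at 30.9, 48.3 and 39.8 CPM, and Sars2, for serine in mitochondria, at 8.59, 13.5 and 12.3 CPM. In each of them library 1 was the lowest and library 2 the highest. The narrowest ranges were those of Wars at 55.2, 56.2 and 55.6 CPM, Sars at 44.6, 45.6 and 45.9 CPM, and Kars at 112, 116 and 118 CPM. The median range over members was 0.33 in log2, against 0.35 over all 12476 genes.

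Library 1, which held the largest share of Rn45s, had the lowest level of most synthetase genes. It was the lowest library for 19 of 21 cytosolic and 12 of 16 mitochondrial genes, against 44.4% of all 12476 genes. The mitochondrial ribosomal protein genes showed the same, with library 1 lowest for 56 of 77. The median log2 difference of library 1 from the mean of libraries 2 and 3 was -0.25 for cytosolic genes, -0.13 for mitochondrial genes and -0.05 for all genes. With TMM scaling the medians were -0.20, -0.08 and 0.00057, and library 1 was lowest for 16 of 21, 9 of 16 and 38.5% of genes. With Rn45s and Lars2 taken out of the totals, it was lowest for 15 of 21, 9 of 16 and 36.8%. With plain totals, Qars was the cytosolic gene, and Lars2, Tars2 and Pars2 the mitochondrial genes, that lay higher in library 1 than in the mean of the others. With TMM scaling 3 cytosolic and 4 mitochondrial genes did, and without Rn45s and Lars2 in the totals 3 and 5. Summed markers of some other cell types were also highest in library 1, at 15.5 CPM for T cells, 14.1 CPM for erythroid cells and 196 CPM for granulocytes and macrophages, against lows of 5.54, 2.83 and 143 CPM in another library. Those of stroma and endothelium, 101 to 111 CPM and nearly all from Pecam1, were not highest there. The part of these markers and of Rn45s in the low values of library 1 was not tested.

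**Figure D3:**
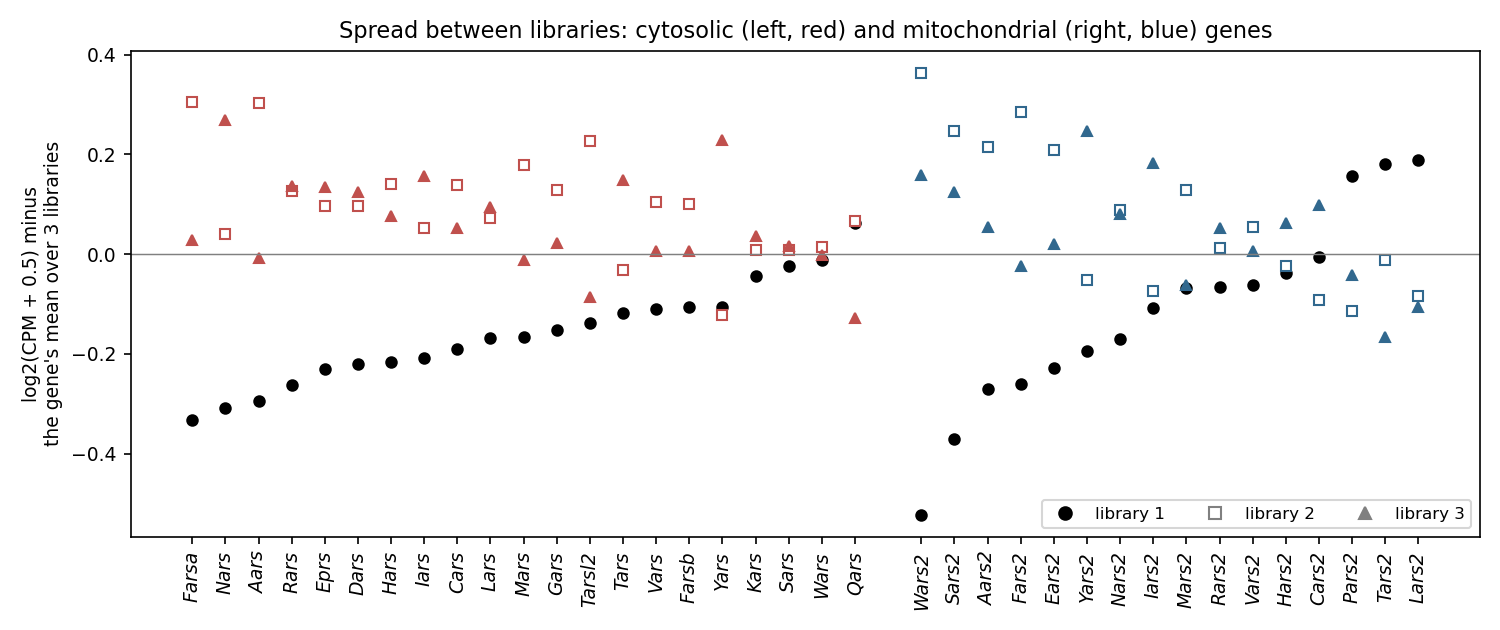
Log2(CPM + 0.5) of each synthetase gene in the 3 libraries, relative to the gene's own mean, with cytosolic genes left and mitochondrial genes right. Filled black points are library 1, which is the lowest for 19 of 21 cytosolic and 12 of 16 mitochondrial genes.

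Genes that work beside the synthetases were set against them on the same scale. All 3 scaffold genes of the complex were expressed, with Aimp2 at 13.3 ± 1.68, Eef1e1 at 6.56 ± 0.462 and Aimp1 at 6.52 ± 1.76 CPM per kilobase, each below the complex enzyme median of 24.6. Subunits of elongation factor 1, which carries charged transfer RNA to the ribosome, were far higher. Eef1a1 was at 2416 ± 37.9, Eef1g at 457 ± 67.0 and Eef1b2 at 242 ± 46.4 CPM per kilobase, while Eef1d was at 13.8 ± 1.84. Xpot, which exports transfer RNA from the nucleus, led the 6 proofreading and handling genes at 24.7 ± 3.12 CPM per kilobase. The lowest of them was Dtd2, a deacylase of charged transfer RNA, at 5.42 ± 0.865. The selenocysteine enzymes Sepsecs and Pstk were low, at 2.12 ± 0.139 and 1.69 ± 0.249 CPM per kilobase.

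Mitochondria have no glutaminyl-tRNA synthetase of their own and convert glutamate on the transfer RNA by an amidotransferase. Its subunit genes Gatc, Qrsl1 and Gatb were at 39.0 ± 1.36, 3.80 ± 0.384 and 2.56 ± 0.313 CPM per kilobase, so Gatc stood well above its partners. The 8 mitochondrial translation factor genes had a median of 9.80 CPM per kilobase, led by the initiation factor gene Mtif2 at 17.8 ± 2.70 and the elongation factor gene Tufm at 15.2 ± 2.13. The 7 genes of mitochondrial tRNA processing had a median of 5.76. Among them Hsd17b10, a subunit of the enzyme that trims mitochondrial tRNA ends, was highest at 48.8 ± 5.60. The 77 mitochondrial ribosomal protein genes had a median of 9.73 CPM per kilobase, and the mitochondrial synthetase median lay 1.23 ± 0.07 (SD, n = 3) below theirs in log2. In CPM without division by length the order turned, with the synthetases 0.22 ± 0.16 above.

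The amino acid starvation response was represented by 9 genes, all with a mean of at least 1 CPM. Atf4 was at 63.7 ± 8.23 CPM per kilobase, and its serine synthesis targets Psat1 and Phgdh were at 43.7 ± 6.28 and 39.0 ± 4.15. The kinase gene Eif2ak4, which encodes Gcn2, was at 9.16 ± 0.567. The stress-induced targets Trib3 and Chac1 were the lowest, at 1.01 ± 0.456 and 0.696 ± 0.350 CPM per kilobase. Asns, whose enzyme makes asparagine, was at 11.8, 20.6 and 25.0 CPM in libraries 1, 2 and 3 and lowest in library 1. Sesn2, a stress-induced gene of the same list, was at 12.9, 5.58 and 7.13 CPM and Ddit3 at 8.01, 7.53 and 6.59 CPM, both highest in library 1, so the list did not move one way. None of the genes in these lists passed the edgeR test of spread.

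**Figure D4:**
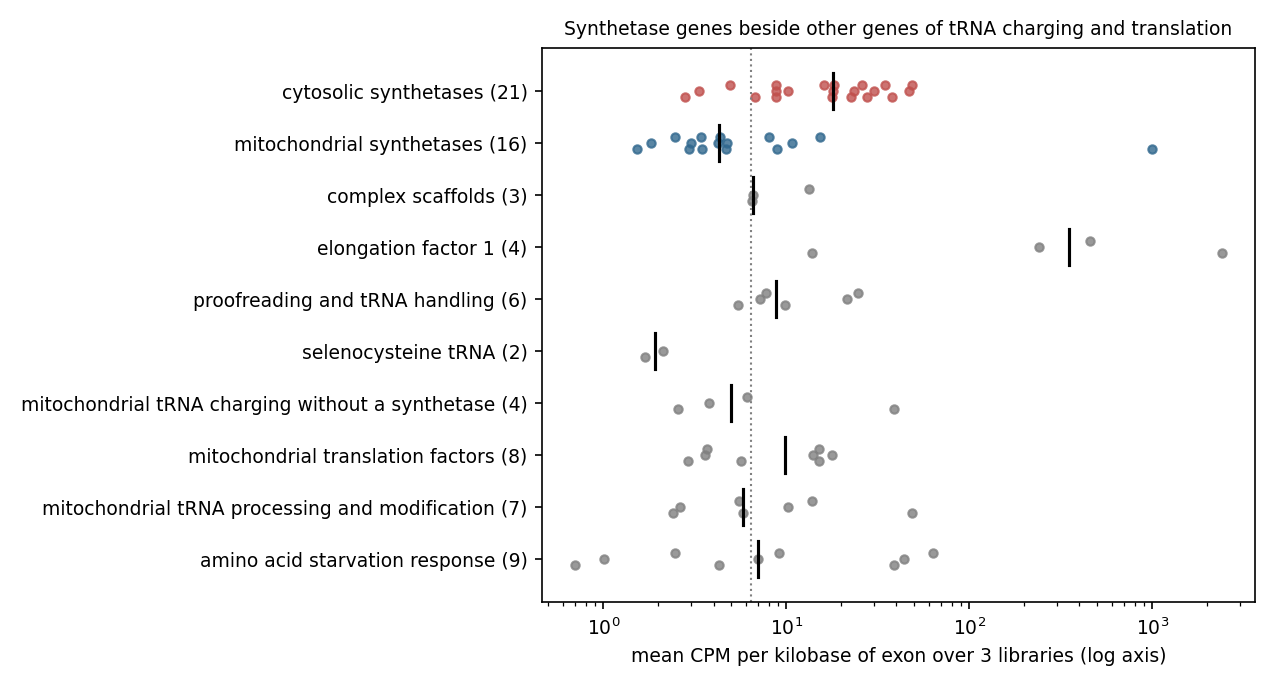
Mean CPM per kilobase of exon over 3 libraries (log axis) for the synthetase genes and 8 lists of genes that act beside them, with the number of genes in parentheses. Black bars are medians, and the dotted line is the median of all 12476 genes at 6.45. The cytosolic synthetase median lies right of the line, the mitochondrial one left of it.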

How the data were processed

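The authors deposited a table of unnormalized counts for each library, with gene symbols as rows. TopHat2 2.0.9, HTSeq, DESeq2 and mm10 are listed in the submitters' processing notes. Which gene model was counted, and whether by strand, is not given in the sources used here. Per the labels' protocols, cDNA was amplified from 10 ng of RNA with poly(A) and random priming, so reads are not independent molecules. The sign-flip and edgeR p-values measure only the spread between these libraries. The chi-square test treats reads as independent, so its p-values can be too small. Gene rows made up 38.2%, 34.1% and 40.0% of all entries in libraries 1, 2 and 3. The 92 spike-in rows (0.233 to 0.567% of entries) and the 5 HTSeq category rows were left out of totals and tests.

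CPM used plain gene totals. Lengths, overlaps and 50-base words came from GENCODE M21, which held 95.7% of gene symbols and all 37 members. Logs were log2(CPM + 0.5) less log2 of kilobases. Pairs were tested by exact sign-flip permutation. Spread was tested over the 12965 genes that averaged 1 CPM or more by an F test of edgeR's quasi-dispersion (intercept only, TMM, robust) over its trend, and by a chi-square test, both Benjamini-Hochberg adjusted. The edgeR biological coefficient of variation was 20.7%. On simulated data of 12761 to 12799 genes, the edgeR test recovered 40.4% of genes changed 2-fold in 1 library and 90.4% of those changed 4-fold. Every simulated gene was given the dispersion of the trend, without the differences in dispersion between real genes. These shares therefore do not tell what the test could find in the real libraries, and its power there was not measured. No p is given for scores over the members.

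The members and lists were chosen with earlier results of these data known. Values in each library are given for the highest and lowest genes of each compartment, the widest and narrowest pairs and ranges, and Farsa, Farsb, Gars, Kars, Eprs, Tarsl2 and Lars2. Other genes named were chosen as examples after their values were seen. Alternatives were other scalings, lengths, pseudocounts, expression minima, gene lists and leaving out each library. Software was R 4.3.3, edgeR 4.0.16, DESeq2 1.42.0, Python 3.11.15, NumPy 2.4.6, SciPy 1.17.1 and pandas 2.3.3.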

Additional observations from a re-analysis of the deposited data

How the results depend on the processing

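No paired comparison between groups of libraries was possible because the libraries form a single group. The only pairing was that of partner genes within a library. The number of pairs with the cytosolic gene higher in every library was 13 or 14 under each alternative tried. The cytosolic minus mitochondrial difference of 2.12 in log2 kept its direction under each alternative. It was 1.49 with the longest coding transcript, 1.04 with the longest coding sequence, 1.69 in CPM, 1.30 with means of log2 levels and 1.79 with such means without Lars2, the last chosen after seeing the data. Leaving out 1 library gave 2.09 to 2.15. The complex minus other cytosolic difference was 1.47 with coding transcripts, 1.11 with coding sequences and 1.06 with means. The class I minus class II difference was 0.40 ± 0.19 in CPM. The mitochondrial synthetases lay 0.80 below mitochondrial ribosomal protein genes with coding transcripts (a difference of -0.80) and 0.22 above them in CPM. The Yars over Yars2 ratio was reversed, at 0.20 with coding transcripts and 0.25 in CPM, and Cars over Cars2 went between -0.19 and 0.016 as 1 library was left out, above 0 without library 1. The causes of these changes were not tested. The share of gene counts was 1.5% without Rn45s in the total and 0.245% without Lars2. The edgeR test called 1 gene in all, 9 to 33 when 1 library was left out (33 without library 1), and DESeq2 marked 30, with 0 members in each case. The chi-square test called 10707 genes, and 6660 to 8709 when 1 library was left out, with 19 to 28 members. The depth did not limit any member, since the lowest count was 214. Random priming, unknown strand handling and the annotated exon union limit how far levels of different genes can be compared.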
